A study of Mus musculus with 4 samples.

Results

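A set of 10 genes of brown fat heat production was followed through the transcriptomes of 4 mouse sarcomas: Ucp1, Cidea, Ppargc1a, Dio2, Prdm16, Elovl3, Cox7a1, Cox8b, Zic1 and Adrb3. The set is 10 of the 56691 genes in the table, and they were chosen by name as genes of uncoupling and brown adipocyte identity, with their counts in these same sarcomas already known. Their levels in ATO and PBS sarcomas are therefore described here and not tested.

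The RNA came from sarcoma tissue of heterozygous W/+ mice, in which one allele of p53 carries a missense mutation that the labels write as p53R282W/+ (p53-R279W in mouse numbering). All 4 sarcomas share this genotype. Sarcomas ATO 1 and ATO 2 came from mice given arsenic trioxide (ATO), a compound studied for its ability to restore function to some p53 mutants, and PBS 1 and PBS 2 came from control mice, for which the labels name PBS as the treatment and the study's methods describe mice without ATO. The tumors arose spontaneously, and sarcomas of several types occur in such mice, but the labels do not give the type of each sarcoma or the age of each mouse. For all 4 samples the labels also give a culture protocol with dexamethasone, isobutylmethylxanthine and insulin, agents used to turn cells into adipocytes, which does not match the labelled tissue. Nothing in the labels states that the sarcomas of a group came from separate mice.

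Brown adipocytes burn fat to make heat. Cold acts through noradrenaline on β-adrenergic receptors, raises cyclic AMP, releases fatty acids from lipid droplets and switches on a set of genes, at the end of which UCP1 lets protons flow back across the inner mitochondrial membrane without making ATP. Several transcription factors and coactivators set up this program in adipocyte precursors, and some of these precursors share their origin with skeletal muscle.

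The libraries held between 15259695 and 18134000 counts. They differed widely within each group, with a biological coefficient of variation of 62.5%. ATO 2 stood apart in the share of its counts from mitochondrial genes, 14.7% against 1.98% to 2.59% in the other 3 sarcomas. Levels are given as FPKM (counts scaled to exon length and to the total count of the library, which allows genes to be compared) or as CPM (counts scaled to the library total after TMM normalization, which allows sarcomas to be compared). A count of 0 allows up to 3 counts, or 0.165 to 0.197 CPM before TMM scaling, and this limit and the intervals given here cover counting error only.

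The labelled tissue was checked against marker genes of other cell types, since a bulk tumor contains more than tumor cells. The summed FPKM of 8 general adipocyte markers was 41.8 in PBS 1, 117 in PBS 2, 632 in ATO 1 and 2382 in ATO 2. All 8 were higher in both ATO sarcomas than in both PBS sarcomas, as were 19.6% of all tested genes. The 13 skeletal muscle markers summed to 7.80, 143, 15690 and 1185 in the same order, with 12 of them highest in ATO 1. The 5 bone and cartilage markers summed to 412 in ATO 1 and to between 0.48 and 1.36 elsewhere. The 5 endothelial markers were highest in PBS 2, at 904 against 72.4 to 145. The 4 sarcomas thus differed in RNA of these markers, and the part of this in the results that follow was not tested.

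The promoters of 5 members are shown. Of these genes, Ucp1, Cox7a1 and Cox8b were highest in ATO 2, Ppargc1a in ATO 1 and Dio2 in PBS 1. The promoters were chosen for their different motifs, with none of those marked in Cox7a1, and for the different patterns of their genes. Each is the 250 bases before the RefSeq start of the gene in GRCm38.p6, read 5′ to 3′ on the strand of the gene, at chr8:83290098-83290347 (+) for Ucp1, chr7:30183921-30184170 (+) for Cox7a1, chr7:140900447-140900696 (-) for Cox8b, chr5:51567726-51567975 (-) for Ppargc1a and chr12:90739039-90739288 (-) for Dio2. Capitals mark matches on either strand to 5 motifs, namely the cyclic AMP response element TGACGTCA, its core TGACG, the nuclear receptor core AGGTCA, the E-box CAGCTG bound by myogenic factors, and the TATA box TATAAA.
Ucp1: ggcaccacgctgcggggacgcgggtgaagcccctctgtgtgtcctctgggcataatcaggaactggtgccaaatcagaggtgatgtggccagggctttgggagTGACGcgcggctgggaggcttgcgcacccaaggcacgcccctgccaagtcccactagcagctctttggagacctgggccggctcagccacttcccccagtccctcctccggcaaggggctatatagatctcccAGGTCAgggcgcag
Cox7a1: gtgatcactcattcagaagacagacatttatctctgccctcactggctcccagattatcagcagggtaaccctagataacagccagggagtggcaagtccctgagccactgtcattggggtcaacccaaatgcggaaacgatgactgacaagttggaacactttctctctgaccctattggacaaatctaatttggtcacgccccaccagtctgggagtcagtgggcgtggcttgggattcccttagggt
Cox8b: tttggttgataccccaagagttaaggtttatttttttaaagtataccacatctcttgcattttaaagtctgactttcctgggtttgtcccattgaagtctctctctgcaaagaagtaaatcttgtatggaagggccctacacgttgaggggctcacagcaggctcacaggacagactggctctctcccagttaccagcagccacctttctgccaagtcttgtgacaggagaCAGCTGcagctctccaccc
Ppargc1a: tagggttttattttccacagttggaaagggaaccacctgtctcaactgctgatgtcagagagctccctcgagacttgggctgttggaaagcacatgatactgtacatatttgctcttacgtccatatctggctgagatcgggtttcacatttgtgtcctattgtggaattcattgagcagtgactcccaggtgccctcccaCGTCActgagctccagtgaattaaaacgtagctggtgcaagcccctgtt
Dio2: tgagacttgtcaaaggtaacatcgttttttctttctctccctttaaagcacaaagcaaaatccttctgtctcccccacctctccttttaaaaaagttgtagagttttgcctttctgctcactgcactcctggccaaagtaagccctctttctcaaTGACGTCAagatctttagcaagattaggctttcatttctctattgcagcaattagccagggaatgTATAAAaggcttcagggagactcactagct

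Of the 10 members, 7 matched an entry in the RefSeq promoter table, and those of Prdm16 and Zic1 are not printed. The Dio2 window held the full element TGACGTCA, found in 1.55% of 32851 promoter windows of the same length, and a TATA box, found in 12.4%. The core TGACG, which is part of the full element, stood alone in the windows of Ucp1 and Ppargc1a and was present in 17.8% of all windows. The Ucp1 window also held AGGTCA (14.0% of windows), and the Cox8b window held CAGCTG (13.0%). Prdm16, Cox7a1 and Zic1 held none of these letters in the 250 bases. A match is a description of the sequence only.

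The members fell into 3 patterns. Ucp1, Cidea, Elovl3, Cox7a1, Cox8b, Zic1 and Adrb3 (7 of 10) had their highest CPM in ATO 2, and each stood at least 10-fold above every other sarcoma there, where 1.51% of the 19837 genes with at least 10 counts in a sarcoma did and 25.4% of tested genes were highest in ATO 2. Ppargc1a was highest in ATO 1, Dio2 was highest in PBS 1, and Prdm16 was about level in PBS 1 and ATO 2 (CPM ratio 1.02). Together the 10 genes took 0.37% of all counts in ATO 2, 0.00558% in ATO 1, 0.0236% in PBS 1 and 0.00175% in PBS 2. In bulk tissue, fewer cells of a type and less RNA per cell cannot be told apart, so these levels do not say how many brown-like cells a sarcoma held.

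**Figure D1:**
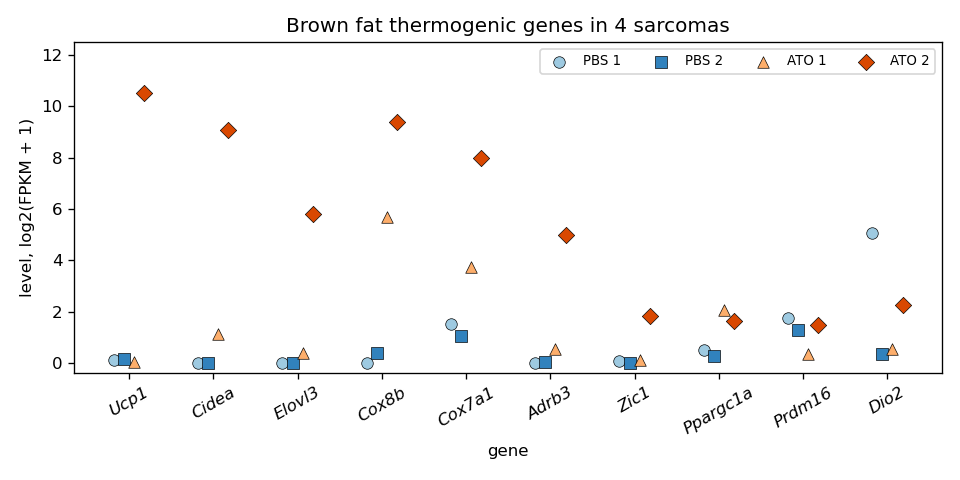
Level of each of the 10 genes (x axis) in each sarcoma on a log2(FPKM + 1) scale (y axis), with 1 point for each sarcoma and no error bars. The ATO 2 points lie far above the rest for the 7 genes at the left, while Ppargc1a peaks in ATO 1, Dio2 peaks in PBS 1 and Prdm16 has PBS 1 just above ATO 2.

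Ucp1 (ENSMUSG00000031710, chr8:83290352-83298452 on the plus strand, GRCm38) encodes the uncoupling protein itself. It had 2 counts in PBS 1, 3 in PBS 2, 1 in ATO 1 and 37084 in ATO 2. Its FPKM in ATO 2 was 1485.45, the 20th highest of all genes, and the gene took 0.243% of that library. The other treated sarcoma was at the level of the PBS sarcomas, so the ATO and PBS groups overlapped for Ucp1. ATO 2 exceeded ATO 1 by a CPM ratio of 54000, for which the single count in ATO 1 leaves a 95% counting interval of 9690 to 2130000.

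Cidea encodes a lipid droplet protein that is abundant in brown fat, and Elovl3 (ENSMUSG00000038754, chr19:46131897-46135694, plus strand) encodes a fatty acid elongase that cold induces there. Cidea had 0 counts in both PBS sarcomas, 24 in ATO 1 and 9299 in ATO 2, or 546.53 FPKM. Elovl3 had 0 counts in both PBS sarcomas, 11 in ATO 1 and 1657 in ATO 2, or 54.98 FPKM. Both genes were thus detected in both ATO sarcomas and in neither PBS sarcoma, but at very different heights. With the PBS libraries set to their limit of 3 counts each, Cidea was at least 4710-fold and Elovl3 at least 839-fold higher in ATO 2, against at least 8.35-fold and at least 3.83-fold in ATO 1. The ratio of ATO 2 to ATO 1 was 564 for Cidea (95% counting interval 379 to 881) and 219 for Elovl3 (122 to 440).

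Cox7a1 (ENSMUSG00000074218, chr7:30184144-30186078, plus strand) and Cox8b (ENSMUSG00000025488, chr7:140898945-140900446, minus strand) encode subunits of cytochrome c oxidase, the last complex of the respiratory chain, in the forms used by muscle and brown fat. Cox7a1 stood at 1.82 FPKM in PBS 1, 1.04 in PBS 2, 12.37 in ATO 1 and 250.49 in ATO 2. Cox8b stood at 0, 0.31, 50.70 and 674.80 FPKM in the same order. Both ATO sarcomas lay above both PBS sarcomas for each gene. The ratio of ATO 2 to ATO 1 was 24.8 for Cox7a1 (20.6 to 30.1) and 16.3 for Cox8b (14.6 to 18.3), smaller than for Ucp1, Cidea or Elovl3, whose intervals lie higher.

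Each of these subunits has a partner that most tissues use, so the tissue form can be given as a share of its family within 1 library, which does not depend on the scaling between sarcomas. Per length, Cox7a1 made up 3.41% of Cox7a1 plus Cox7a2 in PBS 1, 2.35% in PBS 2, 23.2% in ATO 1 and 59.9% in ATO 2 (exact 95% interval 58.4 to 61.3). Cox8b made up 0% of Cox8a plus Cox8b in PBS 1, with an upper bound of 0.365%, then 0.303% in PBS 2, 33.0% in ATO 1 and 54.3% in ATO 2. Thus the tissue forms were the majority in ATO 2 and a minority in ATO 1. Cox6a2, the muscle and heart form of another subunit, named after its values were seen, showed the other order at 0.422%, 1.65%, 56.1% and 2.28% of Cox6a1 plus Cox6a2. The sarcoma with the most Cox6a2 was the one in which the skeletal muscle markers were highest. Ucp1 made up 95.2% of the 3 uncoupling protein genes per length in ATO 2 and at most 0.224% in any other sarcoma.

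**Figure D2:**
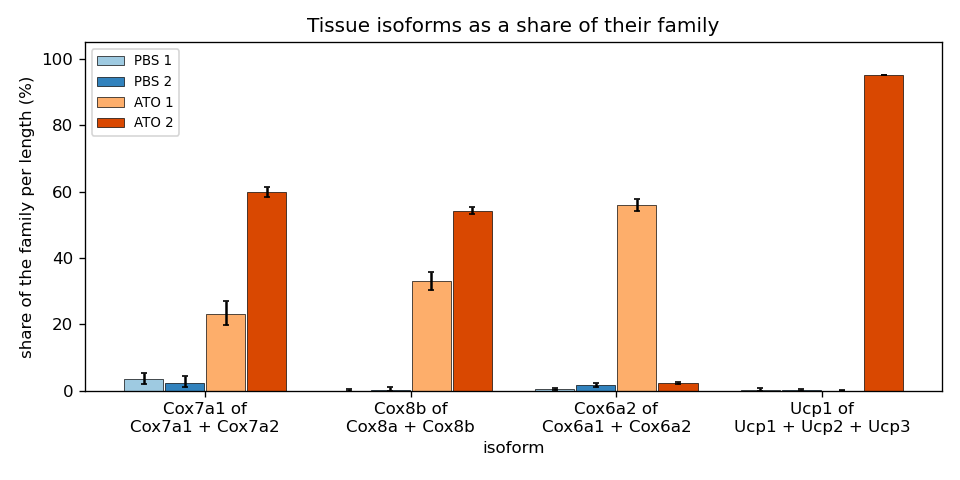
Share of a tissue isoform in its family, in percent per length of exon (y axis), for 4 families (x axis) in each of the 4 sarcomas (bars), with exact 95% counting intervals. Cox7a1, Cox8b and Ucp1 shares peak in ATO 2 (59.9%, 54.3% and 95.2%), whereas Cox6a2 peaks in ATO 1 (56.1%).

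Adrb3 (ENSMUSG00000031489, chr8:27225776-27250616, minus strand) encodes the β3-adrenergic receptor, through which noradrenaline acts on rodent adipocytes. It had 0 counts in PBS 1, 1 in PBS 2, 29 in ATO 1 and 1588 in ATO 2, where its level was 30.82 FPKM. Its CPM in ATO 2 was 79.7 times that in ATO 1 (55.3 to 119). Adrb1, which encodes the β1-adrenergic receptor, had 0 counts in PBS 1, 25 in PBS 2, 68 in ATO 1 and 192 in ATO 2, so that it was also highest in ATO 2 but with a smaller gap to ATO 1.

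Zic1 (ENSMUSG00000032368, chr9:91358058-91365810, minus strand) encodes a zinc finger transcription factor used as a marker of classical brown fat as opposed to beige fat. It had 6 counts in PBS 1, 0 in PBS 2, 9 in ATO 1 and 224 in ATO 2, or 2.58 FPKM. ATO 2 exceeded ATO 1 by a ratio of 36.2 (18.7 to 80.3), while PBS 1 and ATO 1 were not detectably different at these few counts. Its neighbour Zic4 (chr9:91362413-91389348, plus strand) overlaps it, and since no source used here says whether counting used the strand, reads in the shared stretch are uncertain for both. Zic4 had 37 counts in ATO 2 and 0 in the other 3 sarcomas. Of the 7 beige adipocyte markers, 2 were highest in ATO 2, where 25.4% of tested genes were. Their median log2 fold change of ATO over PBS was 0.18, but it was 2.21 without PBS 2, -0.99 without ATO 1 and 0.96 without ATO 2, so no direction can be read for them.

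Ppargc1a (ENSMUSG00000029167, chr5:51454250-51567726, minus strand) encodes a coactivator that drives mitochondrial biogenesis and Ucp1 transcription in brown fat, and that muscle also uses. It had 48 counts in PBS 1, 23 in PBS 2, 384 in ATO 1 and 207 in ATO 2. Its CPM was 1.84 ± 0.965 (SD, n = 2) in PBS and 18.8 ± 3.20 (SD, n = 2) in ATO sarcomas, and the groups did not overlap. It was the one member whose 2 ATO sarcomas lay close together, with ATO 2 at 0.785 of ATO 1 (0.660 to 0.932). Its fitted log2 fold change was 3.35, and between 2.90 (without PBS 2) and 4.01 (without PBS 1) when a sarcoma was left out. Its paralog Ppargc1b stood at 1.19, 0.26, 1.58 and 3.01 FPKM in PBS 1, PBS 2, ATO 1 and ATO 2, while Pprc1 was lower in both ATO sarcomas (7.68 and 4.36) than in both PBS sarcomas (13.99 and 10.01).

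Prdm16 (ENSMUSG00000039410, chr4:154316125-154636873, minus strand) encodes a transcriptional regulator that directs precursors to the brown rather than the muscle fate. Its counts were 387 in PBS 1, 244 in PBS 2, 48 in ATO 1 and 251 in ATO 2. PBS 1 and ATO 2 differed by a CPM ratio of only 1.02, and the low sarcoma was ATO 1, so that ATO 2 exceeded ATO 1 by 7.61 (5.57 to 10.6). The fitted log2 fold change of ATO over PBS was -0.52, and it became 0.28 without ATO 1 and -2.62 without ATO 2. Mecom, its paralog, stood at 5.34, 2.03, 0.56 and 1.44 FPKM, also with its lowest value in ATO 1.

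Dio2 (ENSMUSG00000007682, chr12:90724552-90738438, minus strand) encodes the deiodinase that makes active thyroid hormone inside brown adipocytes. Its counts were 3667 in PBS 1, 32 in PBS 2, 54 in ATO 1 and 368 in ATO 2. PBS 1 was thus 6.56 times higher than ATO 2, the next sarcoma, and the 2 PBS sarcomas were the extremes of the series. The fitted log2 fold change was -2.59, and 3.32 without PBS 1, so its sign rests on that sarcoma. Dio2 was therefore highest in a sarcoma in which Ucp1 had 2 counts and Cidea none. Of the other deiodinases, Dio1 had 0 counts everywhere, and Dio3 had between 13 and 26 counts.

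Set against all genes, Ucp1 had the largest and Cidea the second largest ratio of ATO 2 to the highest other sarcoma among the 19837 genes with at least 10 counts in a sarcoma, with ratios of 18000 and 564. Elovl3 was 10th, Adrb3 33rd, Zic1 79th, Cox7a1 112th and Cox8b 174th. These ranks describe 1 sarcoma and have no replicate check.

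**Figure D3:**
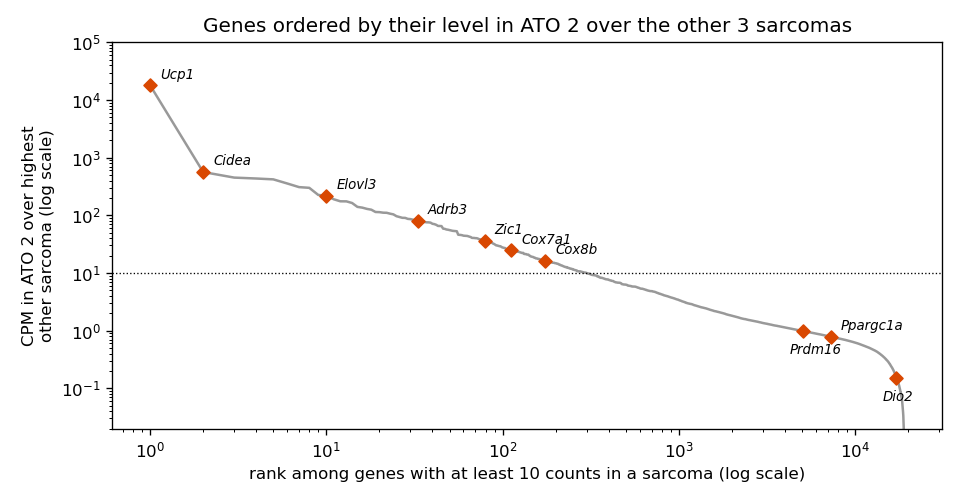
Ratio of the CPM in ATO 2 to that in the highest other sarcoma (y axis, log scale) for 19837 genes ordered by this ratio (x axis, log scale); the grey line is all genes, the diamonds are the 10 members and the dotted line is a ratio of 10. Ucp1 and Cidea hold the first 2 places and 7 members lie above the dotted line.

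As a comparison of ATO with PBS, 7 of the 10 members had both ATO sarcomas above both PBS sarcomas (all except Ucp1, Dio2 and Prdm16) and 0 had both below, where 19.6% of the 17188 tested genes lay above and 20.3% below. The count of 7 was the same by FPKM and under each scaling tried, but it includes Zic1, which was not among the tested genes and whose ATO 1 and PBS 1 values rest on 9 and 6 counts. The filter on low counts kept 8 members and dropped Ucp1 and Zic1, which have enough counts in 1 sarcoma only. Of the 8, Cidea, Elovl3, Cox8b and Adrb3 passed on their ATO counts alone, so they could only come out higher in ATO. Cox7a1 had 17 counts in PBS 1 and 10 in PBS 2, near the limit of the filter, so it also leaned on its ATO counts to pass. The fitted log2 fold changes of these 8 had a median of 8.93, or 7.81 as a ratio of means with PBS values at their limit, and all tested genes had a median of -0.02. Without ATO 2 the median of the 8 was 4.58, with Cox7a1 moving from 6.92 to 3.23. These medians describe genes chosen on this contrast, and the ATO 2 sarcoma carries much of their size.

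In the edgeR quasi-likelihood test of ATO against PBS, 0 of 17188 genes (0%) passed a Benjamini-Hochberg adjusted p of 0.05 and 1463 (8.51%) had an unadjusted p under 0.05. The 7 lists of other pathway genes were chosen with earlier results of these data known, so their shares describe the lists only. They also hold genes of muscle, such as Ucp3 and Cox6a2. These lists leave out the members and hold 90 genes, which are set beside the shares over all genes. Of the 79 that were tested, 0 passed, the smallest adjusted p being 0.570, and 18 (22.8%) had an unadjusted p under 0.05, all of them higher in ATO. Some of the 18, among them Ucp3, Cidec and Bmp8b, had at most 7 counts in each PBS sarcoma. Such genes passed the filter on their ATO counts alone, so they could only come out higher in ATO. Those 18 were highest in ATO 2 for 12 genes and in ATO 1 for 6. DESeq2 called 716 genes (4.33% of those with an adjusted p), including 13 pathway genes, and edgeR without the filter called 541 (1.75%), also including 13, all higher in ATO; 11 were called by both. Both ATO sarcomas lay above both PBS sarcomas for 31 of the 79 (39.2%), against 19.6% of all tested genes. They lay below for 6 (7.59%), against 20.3%. ATO 2 was the highest sarcoma for 47 (59.5%), against 25.4%.

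The 14 other brown adipocyte genes followed the pattern of Ucp1 most closely. Of them 13 were highest in ATO 2, against 25.4% of tested genes. Among the 13 is S100b, which is also in the list of Schwann and neural markers, where 3 of 6 were highest in ATO 2. In ATO 2, 6 of the 14 brown adipocyte genes stood at least 10-fold above each other sarcoma, against 1.51% of genes with at least 10 counts in a sarcoma. The median log2 fold change of this list was 4.02, and 0.02 without ATO 2, whereas that of the general adipocyte markers was 5.67, and 5.27 without ATO 2. By mean FPKM the leading genes were Fabp3, Pdk4 and Gpd2. Fabp3, a fatty acid carrier of muscle and brown fat, stood at 5.57, 2.30, 147.34 and 431.65 FPKM in PBS 1, PBS 2, ATO 1 and ATO 2. Gpd2, the mitochondrial glycerol phosphate dehydrogenase, stood at 7.21, 9.99, 6.71 and 86.91. Pdk4, which restrains glucose oxidation in favour of fat, was the exception, with 641.57 in ATO 1 against 99.61 in ATO 2. Named after their values were seen, Kcnk3, a potassium channel, had 31.89 FPKM in ATO 2 and at most 2.23 elsewhere, and Otop1 had 31.71 in ATO 2, 1.12 in PBS 2 and 0 in the other sarcomas.

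The 14 regulators of brown adipocytes had a median log2 fold change of 1.53, and 0.72 without ATO 2. Of them 9 were highest in ATO 2, against 25.4% of tested genes, and 4 were highest in PBS 1. Pparg, the master regulator of fat cells, stood at 0.85, 6.43, 8.12 and 32.27 FPKM, Cebpb at 53.68, 63.86, 37.58 and 118.12, and Esrra, a nuclear receptor that acts with the Ppargc1a protein, at 6.32, 7.51, 12.34 and 22.03. Lhx8, named after its values were seen, followed Dio2 instead, at 38.15 in PBS 1, 3.99 in ATO 2 and at most 0.26 in the others. The 6 repressors of the brown program had a median of 0.01, with 3 changes positive and 3 negative, and none was highest in ATO 2. Among them Twist1 stood at 32.99 FPKM in PBS 1 and at 5.47 to 9.70 in the others. Rb1, named after its values were seen, stood at 4.26, 5.40, 18.35 and 7.67 FPKM in PBS 1, PBS 2, ATO 1 and ATO 2. This repressor is among the pathway genes counted above as higher in ATO.

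The paralogs of the members shared parts of the pattern. Cidec, which like Cidea coats lipid droplets but is common to fat cells in general, had 0.03 FPKM in both PBS sarcomas, 23.53 in ATO 1 and 247.72 in ATO 2. Elovl6 was high in ATO 2 alone, at 85.40 FPKM against 0.88 to 3.25, whereas Elovl1 was lower in both ATO sarcomas (20.59 and 18.56) than in both PBS sarcomas (26.74 and 34.13). Ucp2, found in many tissues, stood at 31.15, 62.67, 83.91 and 53.18 FPKM, and Ucp3, the muscle form, at 0, 0.12, 37.34 and 21.30. By CPM, Ucp2 was higher in ATO 2 (452) than in PBS 2 (395), the reverse of the FPKM order. The widely used Cox7a2 and Cox8a were also highest in ATO 2, at 168.00 against 40.89 to 51.56 FPKM and at 568.09 against 101.76 to 160.39.

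The remaining nuclear-encoded subunits of cytochrome c oxidase shared this peak, with 8 of 10 highest in ATO 2, against 25.4% of tested genes. The summed FPKM of the 10 was 609 in PBS 1, 574 in PBS 2, 808 in ATO 1 and 2637 in ATO 2. Cox6a1, Cox4i1 and Cox6b1 led the list in ATO 2 at 665.40, 513.90 and 592.94 FPKM. The mitochondrial genes, whose share was also highest in ATO 2, include those of the core subunits of the same complex. In adrenergic and thyroid hormone signalling 6 of 10 genes were highest in ATO 2, against 25.4% of tested genes. Prkar2b, a regulatory subunit of protein kinase A that is abundant in fat, stood at 28.79, 20.68, 25.87 and 154.64 FPKM, Gnas at 33.16, 31.23, 24.06 and 61.49, and Prkaca at 35.00, 24.22, 26.42 and 60.47.

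Heat can also be made without UCP1, by futile cycling of calcium or creatine or through N-acyl amino acids, which the enzyme PM20D1 makes. Of the 11 genes listed for these routes, 6 had their highest CPM in ATO 1 and 4 in ATO 2, where 25.4% of tested genes did. Atp2a1, the calcium pump of fast muscle, stood at 3219.62 FPKM in ATO 1 and 171.57 in ATO 2, and Sln, which uncouples that pump, at 108.11 and 1.89. Atp2a2, the pump used more widely, lay between 42.98 and 70.06 FPKM in all sarcomas. It was highest in PBS 1 by FPKM and in ATO 2 by CPM (437 against 391 in PBS 1). Atp2a1 and Sln thus peaked in the sarcoma with the most RNA of the muscle markers. Pm20d1, named after its values were seen, had 229 counts in ATO 2 and at most 1 elsewhere.

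**Figure D4:**
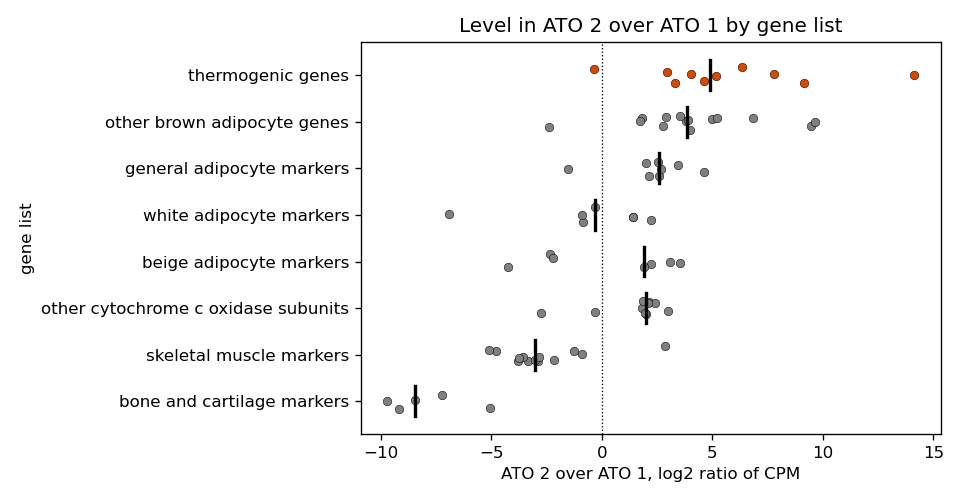
Log2 ratio of the CPM in ATO 2 to that in ATO 1 (x axis) for each gene (points) of 8 lists (y axis), with the median of each list as a bar and genes with at most 3 counts in both sarcomas left out. The 10 thermogenic genes have a median of 4.90, the general adipocyte markers 2.57, the skeletal muscle markers -3.03 and the bone and cartilage markers -8.45.

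Within the treated group, the lists differed in how far ATO 2 lay from ATO 1. The log2 ratio of ATO 2 to ATO 1 had a median of 4.90 over the members (range -0.35 to 14.14), 3.84 over the other brown adipocyte genes, 2.57 over the general adipocyte markers (-1.54 to 4.64) and 0 over all tested genes. The white adipocyte markers went both ways, with a median of -0.31 and a range of -6.93 to 2.21. The hormone genes Lep and Retn, named after their values were seen, were higher in ATO 2, at 13.56 and 15.65 FPKM against 6.20 and 4.16. Slc7a10 was also higher in ATO 2. Nnat, Wfdc21, Hoxc8 and Hoxc10 were lower there, with log2 ratios of -0.84, -0.31, -0.91 and -6.93. Fabp4, a fatty acid carrier of fat cells, had 154.80 FPKM in ATO 1 and 809.09 in ATO 2, and Cfd, the adipokine adipsin, had 132.36 and 472.87. Per length, the level of Ucp1 was 7.79 times that of Adipoq, the adiponectin gene (named after its values were seen), in ATO 2 and 0.000771 times in ATO 1, where Adipoq itself stood at 38.89 FPKM. ATO 1 thus held adipocyte marker RNA beside a single count of Ucp1. In the PBS sarcomas both genes were too low for this ratio to be read, with Adipoq at 0.08 FPKM in each. The part of the adipocyte, muscle and mitochondrial RNA in the differences between these sarcomas was not tested.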

How the data were processed

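Transcriptomes of 4 W/+ sarcomas were analysed, grouped by labelled treatment (ATO, n = 2; PBS, n = 2). The authors removed adapters with cutadapt 1.9.1 after quality control with FastQC 0.10.1, aligned reads with HISAT2 2.0.1 and deposited raw read counts per gene made with HTSeq. The authors also deposited FPKM, which equal the counts divided by exonic length and total count to within 0.005. The strand setting is not given in the sources used here. The labels name another RNA extraction and library kit than the study's methods. Since 1472 of 52073 shared genes (2.83%) had the GENCODE M21 position, positions were taken from that GRCm38 annotation by identifier.

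ATO and PBS counts were compared with the quasi-likelihood F-test of edgeR 4.0.16 under R 4.3.3, after filterByExpr and TMM normalization (factors between 0.822 and 1.11), with a trended dispersion and p-values adjusted by Benjamini-Hochberg (threshold 0.05). The fit was also tried on simulated counts. The 17188 genes tested held at least 99.49% of the counts. Alternatives were DESeq2 1.42.0, its size factors, testing without a filter, a minimum mean FPKM of 1, a replicate block, limma 3.58.1 on log2(FPKM + 1) and log2(FPKM + 0.1), and each sarcoma left out. P-values set the difference between the groups against the spread between sarcomas within a group, as estimated with the help of all genes. They rest on these sarcomas only. Intervals are exact binomial (Clopper-Pearson) at 95%, and ratios of 2 libraries use the same interval on their counts. The members and gene lists were chosen with earlier results of these data known. Genes were named from the members, their paralogs and the 3 genes of each further list with the highest mean FPKM; others are said to be named after their values were seen. Some genes of the lists are not reported here. Promoter sequences came from RefSeq.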

Additional observations from a re-analysis of the deposited data

How the results depend on the processing

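With 2 sarcomas in each group that differ from each other as much as these do, the comparison of ATO with PBS called 0 genes by edgeR, and by 2 of the alternatives it called many. Past the threshold were 716 genes with DESeq2 and 541 without the filter on low counts, and the number of pathway genes was 13 with each. With limma, another size factor, a filter at a mean FPKM of 1 and each sarcoma left out, both counts were 0. The same held with the replicate number as a block, where 0 genes passed and the median log2 fold change of the members was 8.22. Across genes, the deviations of PBS 1 and ATO 1 from their group means had a correlation of 5.58e-05. With 2 sarcomas in each group, this value cannot decide whether same-numbered sarcomas were paired in some way. The median of the members, 8.93, was 2.93 with limma on log2(FPKM + 1) and 5.25 on log2(FPKM + 0.1), scales that shrink the change of low genes, and it lay between 4.58 and 9.87 when each sarcoma was left out, the lowest value being the one without ATO 2. The median of all genes moved to -0.18 and -0.27 under these limma scales, to 0.11 without PBS 2 and to -0.13 without ATO 1. Of 264 further values of single genes and lists, 206 moved by less than the spread between sarcomas and 58 by more; the cause was not tested. Depth limits the PBS values of Ucp1, Cidea, Elovl3, Cox8b and Adrb3, which rest on at most 3 counts each.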

Other observations

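Among the 15 genes with the largest ratio of ATO 2 to the highest other sarcoma, named here because of these values, Thrsp, Gys2 and Adra1a stand beside the thermogenic genes. Thrsp, a gene of fatty acid synthesis, had 23 counts in PBS 1, 13 in PBS 2, 278 in ATO 1 and 26776 in ATO 2. Gys2, a glycogen synthase, had 618 counts in ATO 2 and at most 1 elsewhere, and Adra1a, the α1A-adrenergic receptor, had 575 in ATO 2 and at most 5 elsewhere. The same 15 genes include immunoglobulin genes, made by plasma cells. Ighg2b had 3, 22, 132 and 20457 counts in PBS 1, PBS 2, ATO 1 and ATO 2, and Ighg3 had 0, 6, 19 and 5892. ATO 2 was thus the highest sarcoma for these immunoglobulin genes as it was for Ucp1, and how the 2 relate was not tested.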
